A study of Mus musculus with 6 samples.

Results

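Msx1, Msx2, Dlx2, Dlx3, Foxn1, Foxq1, Gata3, Vdr, Prdm1 and Ovol1 are transcription factor genes known as regulators of the hair matrix and the inner root sheath. They were taken by gene name from the table of raw counts, which lists 56941 genes. All 10 genes were present, and all 10 passed the filter on low counts. Their expression was compared between hair follicle stem cells (HFSCs) whose libraries carry the label WT and those that carry the label Dab2-cKO, written here as WT-labelled and cKO-labelled. In the cKO-labelled libraries, every member was lower, by between 1.64-fold (Gata3) and 18.7-fold (Msx2), and in no case did the levels of the 2 groups overlap. These folds include background reads, and those of Dlx2, Msx1 and Msx2, whose cKO-labelled levels were near that background, depend on whether it is subtracted. Of all genes tested, 11.5% were called lower. In RNA from bulk sorted cells, a lower level can mean fewer cells that express the gene or less RNA in each, and these cannot be told apart. The libraries also held abundant RNA of fibroblast genes, so the levels are those of a mix of cells.

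The matrix is the pool of dividing cells at the base of a growing hair follicle. Its daughter cells become the hair shaft or the inner root sheath, the layered sleeve that moulds the shaft on its way out of the skin. Wnt signaling through Lef1, BMP, Shh and Notch signals are known to act on the matrix, and the transcription factors studied here are among the genes through which shaft and sheath fates are set. Matrix and inner root sheath are built in anagen, the growth phase, and are absent from the bulge, where the stem cells reside.

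Total RNA was sequenced from HFSCs of female mice of the strain B6;129S4-Dab2tm1Cpr/J at postnatal day 68 (PD68), a time that the study assigned to the second telogen, the resting phase, in both genotypes. Both groups were Dab2fl/fl and were treated with tamoxifen. The Dab2-cKO mice also carried K14CreER, a Cre recombinase that tamoxifen activates and that the K14 promoter drives in epithelial cells of the skin, so that cells outside the epithelium are not its target. HFSCs were sorted from dorsal skin by FACS as CD34+/α6-integrin+ cells, with 3 biological replicates in each group.

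Dab2 itself, the targeted gene (ENSMUSG00000022150), was measured in a mix that includes RNA of cells outside the epithelium, which K14CreER does not target. Its normalized counts were 338, 332 and 309 in the WT-labelled libraries and 1434, 1300 and 1390 in the cKO-labelled ones. The log2 fold change was 2.08 ± 0.08 (SE; edgeR adjusted p = 3.04e-34), so Dab2 was higher, not lower, in the cKO-labelled libraries. In the same libraries, all 7 fibroblast genes (log2 fold change 1.08 to 2.19) and all 7 myeloid genes (1.24 to 2.53) were also higher. How much of the Dab2 RNA came from such cells was not tested, so its level in this mix is no test of the labels. A normalized count is the count per effective library size (the total times its TMM factor), brought to the average such size of the 6 libraries. The columns of the count table for the second group are named FL-FL, and they were assigned to Dab2-cKO because the series title equates the knockout with Dab2 Fl/Fl. The floxed alleles are present in both genotypes, and every direction given here depends on that assignment.

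The depth was 7040032 to 9518564 counts per WT-labelled library and 9374373 to 11696457 per cKO-labelled library. The groups also differed in makeup, with at most 14.4% against 19.1% to 20.3% of counts on mitochondrial genes and TMM factors of 1.11 to 1.21 against 0.847 to 0.876. The sort genes Cd34 (log2 fold change 1.80) and Itga6 (0.55) and the bulge marker Krt15 (0.84) were present in every library. All of them were higher in the cKO-labelled libraries, although the call on Itga6 was lost when only the library size was used for scaling. Of the 10 bulge markers, 4 were higher, 5 lower and 1 not called. The 10 members took up 0.0933% to 0.0993% of all counts in the WT-labelled libraries and 0.0182% to 0.0186% in the cKO-labelled ones.

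The promoters of 9 members were read from the GRCm39 genome to show what the sequence next to these jointly lower genes holds. Short motifs of factors that act in the matrix were searched on both strands in the 300 bases from 250 before to 50 after each start site. The same was done for 21757 protein-coding promoters. The LEF/TCF motif CTTTGA, present in 16.2% of all promoters, the MSX/DLX motif TAATTG (8.05%) and the vitamin D receptor core motif AGGTCA (15.1%) were in none of the 9 windows. The GATA motif AGATAA (10.6% of all promoters) was found in Msx2, the forkhead motif TGTTTAC (3.15%) in Prdm1 and the PRDM1 motif GAAAGTG (4.93%) in Dlx2, each in 1 of 9 members. These 3 promoters are shown as the 250 bases before the start site, 5′ to 3′ on the strand of the gene, with the motif in capitals. In Dlx2 and Prdm1 the motif reads on the opposite strand, so that the capitals are its reverse complement. The windows are chr13:53627111-53627360 for Msx2, chr2:71377103-71377352 for Dlx2 and chr10:44334781-44335030 for Prdm1, all on the minus strand.
Msx2: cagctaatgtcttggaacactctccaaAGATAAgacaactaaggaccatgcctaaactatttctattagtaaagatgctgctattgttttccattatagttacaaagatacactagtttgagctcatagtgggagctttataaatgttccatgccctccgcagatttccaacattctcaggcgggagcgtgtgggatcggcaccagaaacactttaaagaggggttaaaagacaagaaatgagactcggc
Dlx2: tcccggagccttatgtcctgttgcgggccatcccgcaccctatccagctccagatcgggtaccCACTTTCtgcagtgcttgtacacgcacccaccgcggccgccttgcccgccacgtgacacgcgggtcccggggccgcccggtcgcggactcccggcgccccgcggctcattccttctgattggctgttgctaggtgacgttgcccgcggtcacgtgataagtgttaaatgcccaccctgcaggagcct
Prdm1: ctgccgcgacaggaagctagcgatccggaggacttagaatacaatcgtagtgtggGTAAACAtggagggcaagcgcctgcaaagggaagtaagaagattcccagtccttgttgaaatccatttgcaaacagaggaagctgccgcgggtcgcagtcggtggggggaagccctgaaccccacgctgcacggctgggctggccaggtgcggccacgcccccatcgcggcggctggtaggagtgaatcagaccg

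The matches lie at -223 to -218 (Msx2), -187 to -181 (Dlx2) and -195 to -189 (Prdm1) from the start site. The promoters also differed in base composition. Msx1 had 70.0% and Gata3 71.0% G and C over the 300 bases, against 40.7% in Msx2 and 40.0% in Foxq1 and a median of 54.3% over all promoters. Msx1 and Msx2 were therefore not alike in this window and lay near opposite ends of the range. Dlx2 (66.3%) and Dlx3 (58.0%) were closer to each other.

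The homeodomain genes Msx1 and Msx2 respond to BMP signals, and Msx2 is known to act upstream of Foxn1 in the hair shaft lineage. Msx2 (ENSMUSG00000021469, chr13:53620914-53627110, 2 exons in the canonical transcript) had normalized counts of 720.4, 760.1 and 793 in the WT-labelled libraries and 33.4, 58.7 and 30.9 in the cKO-labelled ones. All 3 libraries of the first group were high and all 3 of the second were low, with a gap far wider than the spread within either. The fall was 18.7-fold (log2 fold change -4.22 ± 0.13, SE, edgeR adjusted p = 2.78e-39). Msx1 (ENSMUSG00000048450, chr5:37977829-37981928) had 246, 287 and 247 normalized counts in the WT-labelled libraries and 44.8, 17.3 and 47.5 in the cKO-labelled ones. The groups did not overlap, but cKO-labelled replicate 2 was well below the other two. Msx1 was 7.01-fold lower (log2 fold change -2.81 ± 0.18, SE, edgeR adjusted p = 3.63e-22).

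Dlx3 and Dlx2 are distal-less homeodomain genes. Dlx3 is needed for the differentiation of both shaft and inner root sheath and has Hoxc13 and Gata3 among its known targets. Dlx3 (ENSMUSG00000001510, chr11:95010937-95016122) had 2083, 2359 and 2386 normalized counts in the WT-labelled libraries, the highest of the 10 members, and 127, 115 and 126 in the cKO-labelled ones. The 3 values within each group were close together and the groups were far apart. The log2 fold change was -4.21 ± 0.09 (SE; edgeR adjusted p = 1.54e-49), a fall of 18.5-fold. Dlx2 (ENSMUSG00000023391, chr2:71373752-71377102) had 106, 125 and 115 normalized counts in the WT-labelled libraries. It had 14.3, 17.3 and 15.5 in the cKO-labelled ones, which rest on 15, 15 and 14 raw counts. Its mean was the lowest of any member in that group, although Msx1 was equally low in replicate 2, and it did not overlap with the first group. Dlx2 was 7.35-fold lower (log2 fold change -2.88 ± 0.25, SE, edgeR adjusted p = 3.00e-16).

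Foxn1 and Foxq1 are forkhead genes known from hairless and coat mutants of the mouse. Foxn1 is the gene of the nude mutation and drives hair keratin genes. Foxn1 (ENSMUSG00000002057, chr11:78248403-78277384) had 478, 586 and 546 normalized counts in the WT-labelled libraries and 51.5, 75.9 and 64.0 in the cKO-labelled ones. Each library of the second group was well below each of the first, and the fall was 8.48-fold (log2 fold change -3.08 ± 0.13, SE, edgeR adjusted p = 4.51e-32). Foxq1, the gene of the satin mutation, acts in the medulla of the shaft. Foxq1 (ENSMUSG00000038415, chr13:31740117-31744959, a single exon) had 236, 295 and 296 normalized counts in the WT-labelled libraries against 121, 105 and 118 in the cKO-labelled ones. The groups were separate but nearer to each other than for Foxn1. The fall of Foxq1 was 2.41-fold (log2 fold change -1.27 ± 0.13, SE, edgeR adjusted p = 4.88e-13).

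**Figure D1:**
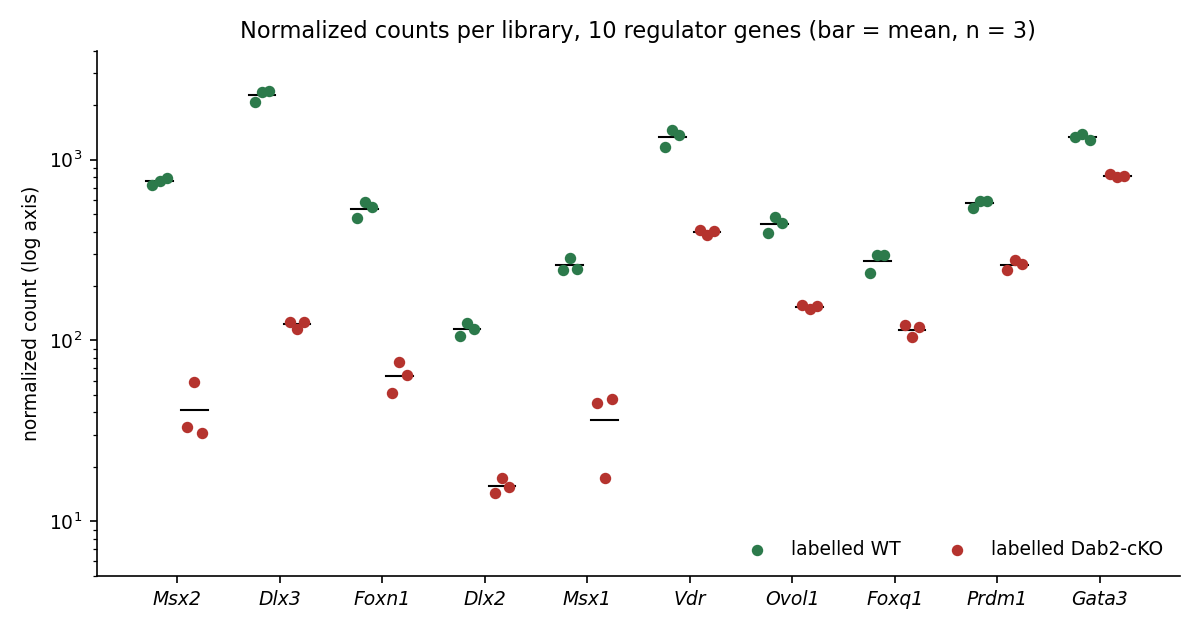
Normalized counts of the 10 regulators in each library (log axis), with a horizontal bar at the mean of each group (n = 3). The 3 cKO-labelled libraries lie below the 3 WT-labelled ones for every gene, with the widest gap for Msx2 and Dlx3 and the narrowest for Gata3.

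Gata3 is a zinc finger factor that specifies the inner root sheath and also acts in the epidermis and in T cells. Gata3 (ENSMUSG00000015619, chr2:9861889-9894845) had 1332, 1389 and 1288 normalized counts in the WT-labelled libraries and 828, 801 and 812 in the cKO-labelled ones. All libraries remained high, and the groups did not overlap. With a 1.64-fold fall (log2 fold change -0.72 ± 0.07, SE, edgeR adjusted p = 2.25e-13), Gata3 had the smallest change of the 10 members. An antisense gene covers 6.66% of its exon bases and the strand setting of the counting is not given in the sources used here. The antisense gene, Gm13256, had raw counts of only 8 to 23 per library.

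Vdr, the vitamin D receptor, is needed for the hair cycle after birth. Vdr (ENSMUSG00000022479, chr15:97752306-97808511) had 1175, 1450 and 1373 normalized counts in the WT-labelled libraries and 409, 382 and 405 in the cKO-labelled ones. The second group was low in all 3 libraries, with a smaller spread than the first. Vdr was 3.34-fold lower (log2 fold change -1.74 ± 0.08, SE, edgeR adjusted p = 1.55e-29).

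Prdm1 and Ovol1 encode zinc finger repressors. Prdm1, also called Blimp1, is expressed in the inner root sheath, the sebaceous gland and the upper epidermis. Prdm1 (ENSMUSG00000038151, chr10:44313171-44404497) had 542, 594 and 587 normalized counts in the WT-labelled libraries and 244, 277 and 265 in the cKO-labelled ones. The ranges were narrow and apart, and Prdm1 fell to 0.455 times its level (log2 fold change -1.14 ± 0.10, SE, edgeR adjusted p = 1.01e-16). Ovol1, a target of Wnt signaling through Lef1, favours exit from proliferation. Ovol1 (ENSMUSG00000024922, chr19:5599164-5610674) had 393, 484 and 443 normalized counts in the WT-labelled libraries and 157, 148 and 155 in the cKO-labelled ones. The second group again lay below the first in every library. The fall of Ovol1 was 2.87-fold (log2 fold change -1.52 ± 0.11, SE, edgeR adjusted p = 2.53e-19). Its value is uncertain in 1 respect, since genes on the opposite strand overlap 29.4% of its exon bases and their reads could not be told apart without strand. Of these, 1810058N15Rik (9.43% of the exon bases) had a mean raw count of 5.67. Gm59143 (19.95%) was not among the genes counted.

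Counted together, 10 of 10 members were called lower and 0 higher (edgeR adjusted p under 0.05), where 28.2% of the 32149 genes tested were called, with 11.5% lower and 16.8% higher. No cKO-labelled library reached the level of any WT-labelled one for 10 of 10 members and for 17.7% of all genes tested. A fall of more than 4-fold was seen in 5 members (Msx2, Dlx3, Foxn1, Dlx2 and Msx1), and in 1.07% of all genes. In 4 members the fall was between 2-fold and 4-fold, and in 1, Gata3, it was less than 2-fold. The median log2 fold change was -2.28 over the members and -0.02 over all genes tested. In the order of all genes, 0.336% had a lower log2 fold change than Msx2, 1.48% a lower one than Vdr and 10.2% a lower one than Gata3.

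Levels of different genes were compared as normalized counts per kb of exon. In the WT-labelled libraries, Dlx3 was the highest at 870.3 ± 64.0 per kb (SD, n = 3). Gata3 (294), Vdr (232), Msx2 (231), Foxn1 (167), Ovol1 (126), Prdm1 (102), Msx1 (81.6), Foxq1 (56.9) and Dlx2 (40.3) followed. Vdr and Msx2 were the only neighbours in this order whose ranges overlapped. In the cKO-labelled libraries, the order was another. Gata3 led at 179 ± 2.97 per kb and Vdr came next at 69.4 ± 2.54, both with no overlap with the gene below. Dlx3 (46.9), Prdm1 (46.7) and Ovol1 (44.0) could not be separated by their ranges. Below them Foxq1 (23.7) overlapped with Foxn1 (19.9), Foxn1 with Msx2 (12.5), Msx2 with Msx1 (11.5) and Msx1 with Dlx2 (5.48). Dlx3 thus stood far above Gata3 in the first group and well below it in the second.

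To judge how near to zero the lowest levels were, the members were set beside 1520 chemosensory receptor genes. These receptor genes were taken to be mostly silent in skin, which was not tested. Their median was 4.94 per kb in the WT-labelled libraries and 4.83 in the cKO-labelled ones, and their 95th percentile was 12.4 and 11.8. All 10 members were above this percentile in the WT-labelled libraries, from 3.26 times it for Dlx2 to 70.4 times for Dlx3. In the cKO-labelled libraries, Dlx2 was at 0.464 times, Msx1 at 0.969 times and Msx2 at 1.06 times the percentile, so these levels were at, near or below that of the upper receptor genes. Foxn1 was at 1.68, Foxq1 at 2.00, Dlx3 at 3.96 and Gata3 at 15.1 times. The mean cKO-labelled levels of Dlx2 and Msx1 could therefore not be told from those of the receptor genes, and that of Msx2 was only just above their percentile. Over single cKO-labelled libraries, Msx1 ran from 5.41 to 14.9 and Msx2 from 9.41 to 17.9 per kb. Both ranges span the percentile, so Msx1 and Msx2 were not told apart in this respect. With the receptor median for its exon length subtracted from each group mean, the log2 fold change went from -4.22 to -4.88 for Msx2, from -2.81 to -3.53 for Msx1 and from -2.88 to -5.77 for Dlx2. The last value rests on a remainder of fewer than 3 normalized counts (15.7 less 13.8), so that the size of the fall of Dlx2, and which member fell the most, cannot be given. For Dlx3 the value went from -4.21 to -4.36 and for Gata3 from -0.72 to -0.73. These values are descriptions with no test.

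**Figure D2:**
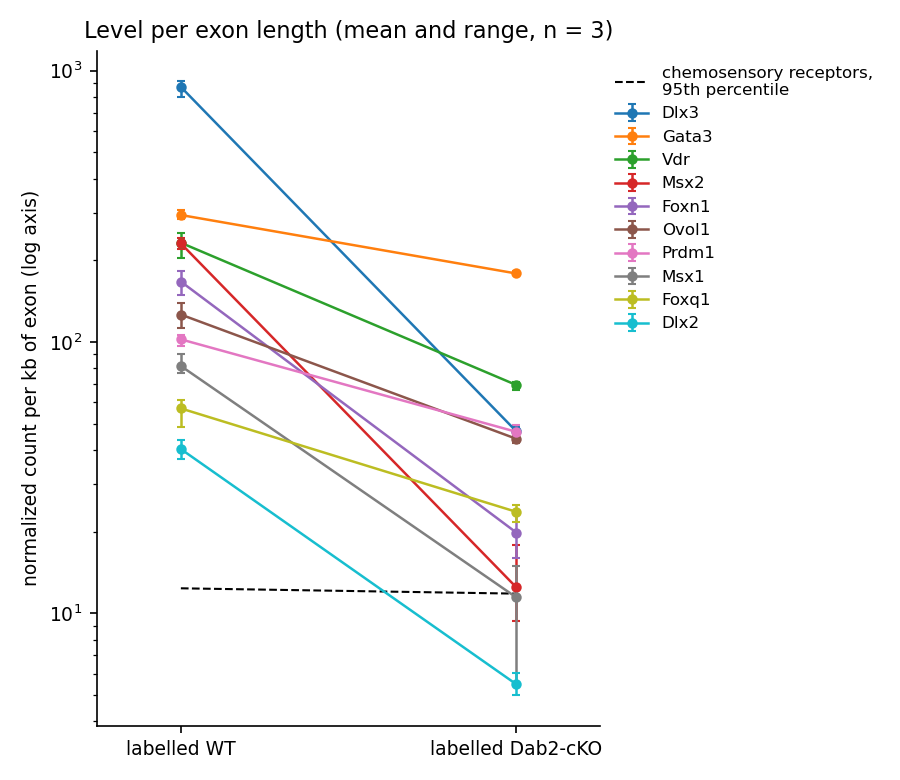
Level of each regulator per kb of exon (log axis) in the WT-labelled and cKO-labelled libraries, as the mean with a bar from the lowest to the highest of 3 libraries. The dashed line is the 95th percentile of 1520 chemosensory receptor genes (12.4 and 11.8 per kb). Gata3 passes Dlx3 between the groups, and Msx2, Msx1 and Dlx2 come down to the dashed line or below it.

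Pairs of members whose levels were above the background in both groups were compared by ratios of levels per kb within each library. These pairs were chosen after the values had been seen. The ratio of Foxn1 to Foxq1 went from 2.94 ± 0.140 (SD, n = 3) in the WT-labelled libraries to 0.850 ± 0.228 in the cKO-labelled ones, and that of Vdr to Gata3 from 0.790 ± 0.0796 to 0.388 ± 0.00906, both with no overlap. For each of these the 2-sided exact permutation p was 0.1, the smallest that 3 against 3 libraries allow. Without overlap between the groups this p can take no other value, so it gives no further support.

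The relatives of the members in their own gene families were examined next, since relatives share DNA-binding domains but not always tissues. Of 17 such genes, 14 passed the filter on low counts. Of these, 2 were called lower and 3 higher, close to the shares over all genes tested (11.5% and 16.8%). A further 9 were not called, and the median log2 fold change was -0.06. The lower ones were both of the Dlx family. Dlx4, the neighbour of Dlx3 on the chromosome, fell from 103 ± 7.70 to 30.3 ± 8.97 normalized counts (SD, n = 3; edgeR adjusted p = 1.20e-09), and Dlx1, the partner of Dlx2, fell from 58.1 ± 7.16 to 30.5 ± 9.43 (edgeR adjusted p = 0.00405). In the cKO-labelled libraries Dlx4 was at 9.05 and Dlx1 at 5.66 per kb, below the 95th percentile of the receptor genes (11.8). Dlx1 was below it in the WT-labelled libraries too (10.8 against 12.4), so the sizes of these falls depend on the background. Dlx5 was at 44.6 ± 19.0 and 60.6 ± 6.30 normalized counts and was not called.

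In the Gata family, Gata2 had a log2 fold change of 1.02 ± 0.18 and Gata6 of 0.84 ± 0.21 (SE), both higher in the cKO-labelled libraries, whereas Gata3 was lower. Gata2 and Gata6 were low genes, at 8.12 and 5.60 per kb in the WT-labelled libraries, where Gata3 was at 294. Foxn2, a widely expressed relative of Foxn1, was higher by 0.54 ± 0.10 on the log2 scale, and Foxn3 differed by 0.13 ± 0.07 and was not called. With library size only as the scaling, the calls on Gata6 and Foxn2 were lost. Ovol2 (-0.89 ± 0.40, SE) and Ovol3 (-0.77 ± 0.56, SE) had negative log2 fold changes like Ovol1 but low counts, and neither was called. Nr1i2, a receptor gene related to Vdr, was not called (-0.09 ± 0.24, SE).

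**Figure D3:**
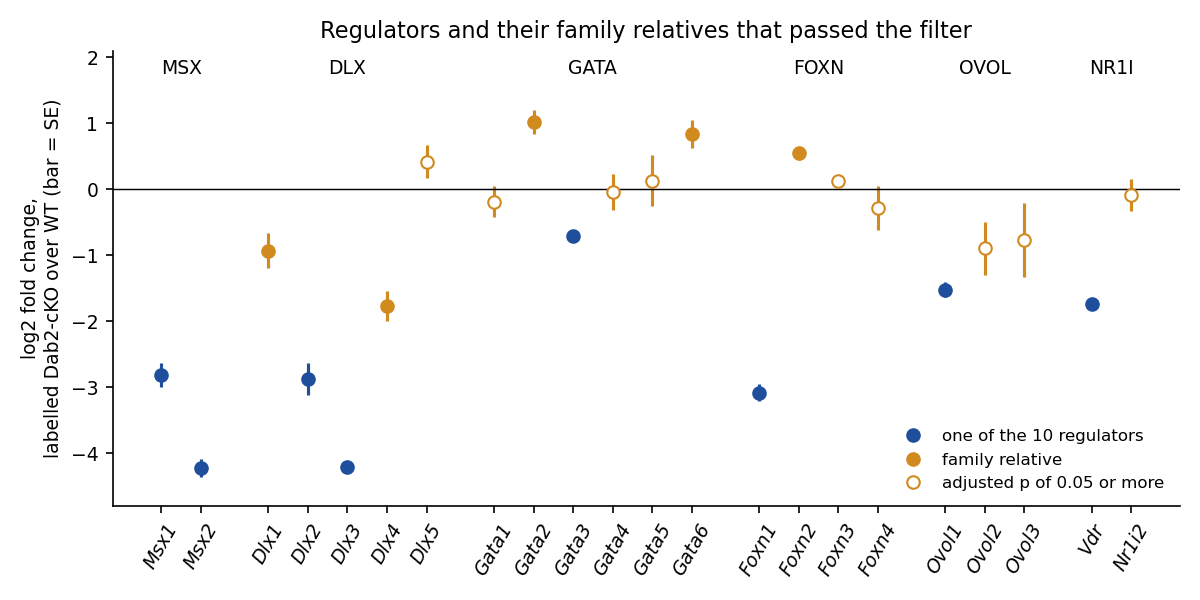
Log2 fold change (cKO-labelled over WT-labelled, bar = SE) of the regulators, in blue, and of the relatives that passed the filter, in orange, by gene family. Foxq1 and Prdm1 had no relatives in the list. Filled points had an adjusted p under 0.05, and only Dlx1 and Dlx4 of the relatives are filled and below 0.

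A further list held other known transcriptional regulators of hair follicle epithelium, of which 21 were tested. Of these, 16 were lower, 3 higher and 2 not called, and the median log2 fold change was -0.85. Hoxc13, which drives hair keratin genes and is a known target of Dlx3, fell from 576 ± 45.0 to 34.3 ± 6.20 normalized counts (SD, n = 3), a log2 fold change of -4.05 ± 0.14 (SE; edgeR adjusted p = 3.59e-37). Lef1, the Wnt effector of the matrix, fell from 1001 ± 115 to 118 ± 9.65 (log2 fold change -3.09 ± 0.10, SE, edgeR adjusted p = 1.96e-38). Foxe1 (-2.69), Sp6 (-2.50) and Cux1 (-2.25) completed the 5 genes of this list with a fall of more than 4-fold. Sp6 rested on few counts, at 20.3 ± 9.08 against 3.54 ± 1.22, and DESeq2 gave it no adjusted p. In the cKO-labelled libraries Foxe1 was at 8.09 per kb, below the 95th percentile of the receptor genes (11.8). Lef1 (12.6) and Hoxc13 (13.9) were just above it, so the sizes of these falls depend on the background.

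Sox21 (-1.96), Elf5 (-1.89), Tfap2a (-1.33) and Grhl1 (-1.08) fell to a degree like that of Vdr, Ovol1, Foxq1 and Prdm1. Falls of less than 2-fold were called for Zfp750, Trps1, Runx1, Gli2, Barx2, Tfap2c and Hr. Klf4, a factor of the differentiating epidermis, was higher (log2 fold change 0.96 ± 0.07, SE, edgeR adjusted p = 2.54e-18), as was Grhl3 (0.69 ± 0.10, SE, edgeR adjusted p = 8.09e-09), an epidermal barrier factor. Runx3 was also called higher (0.48 ± 0.16, SE, edgeR adjusted p = 0.0165), but not with upper-quartile scaling or library size only. Klf5 (0.01 ± 0.08, SE) and Foxi3 (-0.05 ± 0.48, SE) were not called.

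**Figure D4:**
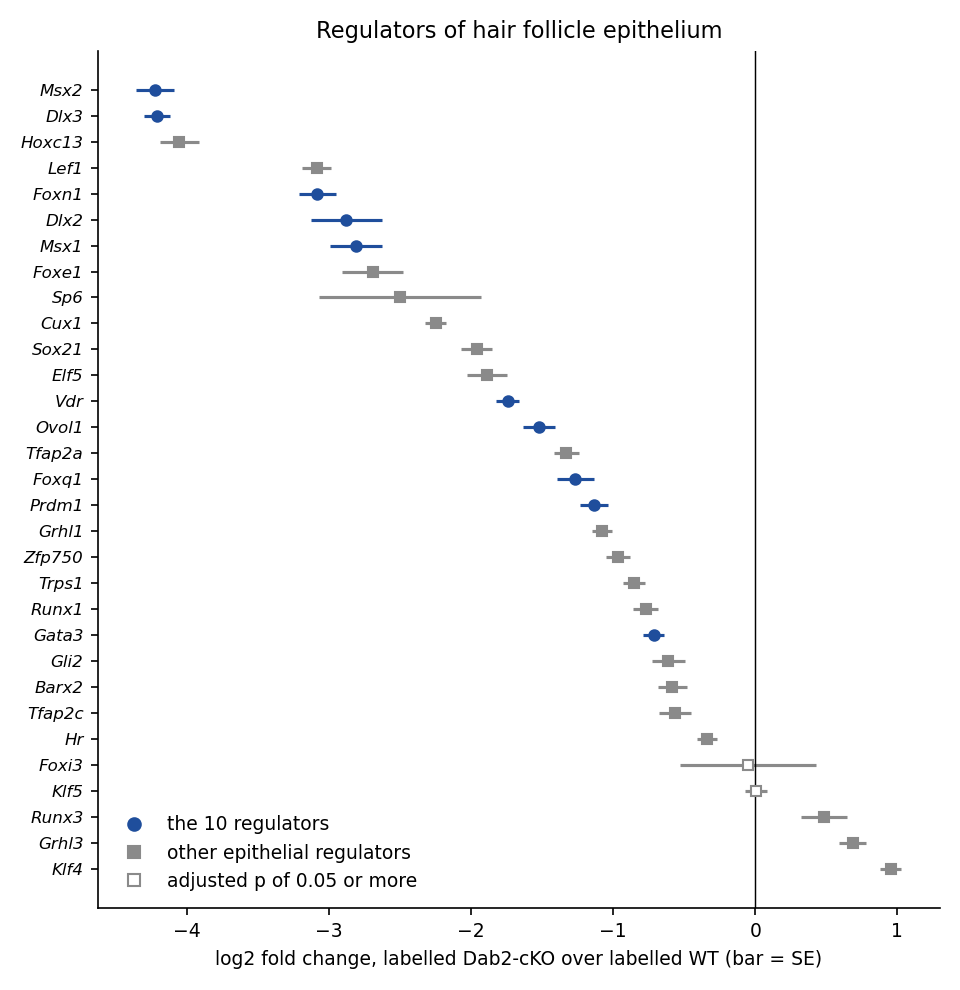
Log2 fold change (cKO-labelled over WT-labelled, bar = SE) of the 10 regulators, as circles, and 21 other regulators of follicle epithelium, as squares. Open squares had an adjusted p of 0.05 or more. Msx2, Dlx3 and Hoxc13 are at the low end, near -4, and Klf4, Grhl3 and Runx3 are above 0.

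Partners and targets of the vitamin D receptor did not share 1 direction with Vdr. Of 8 tested, 3 were lower, 1 higher and 4 not called, with a median log2 fold change of -0.09. The shares over all genes tested were 11.5% lower and 16.8% higher. The lower ones were Hr, a corepressor that binds Vdr (-0.34 ± 0.07, SE), Trpv6, a calcium channel (-0.68 ± 0.13, SE), and Cyp27b1, which makes the active hormone (-0.74 ± 0.25, SE). Rxra, the partner with which Vdr binds DNA, had a log2 fold change of 0.41 ± 0.07 (SE; edgeR adjusted p = 3.69e-06), which became -0.01 with library size only. Cyp24a1, a direct Vdr target in many tissues, was at 35.3 ± 6.47 and 36.7 ± 5.45 normalized counts (SD, n = 3; edgeR adjusted p = 0.919) and, at 9.93 and 10.3 per kb, below the 95th percentile of the receptor genes in both groups.

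Structural genes of the lineages that the members govern were lower without exception among those tested. All 11 structural genes of the inner root sheath tested were lower, with a median log2 fold change of -6.37. Tchh, the trichohyalin gene, fell from 162270 ± 16013 to 1517 ± 13.5 normalized counts (SD, n = 3), a log2 fold change of -6.74. In the WT-labelled libraries Tchh was at 27867 per kb, where Krt14 was at 3403, so sheath RNA was abundant in that group. The sheath keratins Krt71 (log2 fold change -6.94), Krt25 (-6.98) and Krt27 (-6.58) fell alike. All 16 hair shaft genes tested were lower, with a median of -6.21, and Krt83 (-7.67), Krt81 (-7.27), Krt31 (-7.30) and Krt86 (-6.71) had the highest levels among them. In the cKO-labelled libraries these ran from 14.7 (Krt31) to 23.2 per kb (Krt83), not far above the 95th percentile of the receptor genes (11.8). The sizes of the shaft falls therefore depend on the background. The summed normalized counts of the 10 members were 2.63% to 2.77% of those of the structural genes in the WT-labelled libraries and 63.1% to 66.5% in the cKO-labelled ones. Every library of the second group thus had a higher ratio of the summed counts than any of the first. Much of these sums came from few genes. In the cKO-labelled libraries, Gata3 (mean 814) and Vdr (399) were the largest members of sums of 1997 to 2038.5. Tchh (162270) was the largest structural gene in the WT-labelled libraries, whose structural sums ran from 263872 to 316695. The ratio therefore does not describe the members one by one.

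Genes of the signals known to act on the matrix were lower for 13 of 18, higher for 1 and not called for 4, with a median log2 fold change of -0.80. The 4 with the highest levels per kb were all lower, namely Ctnnb1, the β-catenin gene (-0.76 ± 0.07, SE), the Notch ligand gene Jag1 (-1.27 ± 0.08, SE), Notch1 (-0.88 ± 0.07, SE) and the BMP receptor gene Bmpr1a (-0.64 ± 0.07, SE). Shh (-3.11 ± 0.24, SE), the hedgehog ligand of the matrix, and Wnt10b (-1.94 ± 0.20, SE) fell further and are named because of their values. In the cKO-labelled libraries Shh was at 5.58 and Wnt10b at 8.01 per kb, below the 95th percentile of the receptor genes (11.8). The sizes of their falls therefore depend on the background. The gene called higher was Nog, a BMP antagonist, at 12.3, 19.0 and 21.4 against 51.5, 19.6 and 48.6 normalized counts. The groups overlapped for Nog, and its call was lost without cKO-labelled replicate 1 and also without cKO-labelled replicate 3.

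The genomic neighbours of the members were examined to see whether the lower counts extended along the chromosome. The nearest gene on each side with a mean count of at least 10 gave 20 neighbours, of which 18 were tested, 5 were lower, 2 higher and 11 not called. Over all genes tested, 11.5% were lower and 16.8% higher. Dlx3 was flanked by Dlx4, 15.2 kb away, which fell as given above, and by Itga3, 43.3 kb away, which fell from 451 ± 3.26 to 278 ± 52.7 normalized counts (SD, n = 3; edgeR adjusted p = 6.63e-08). Hdac7, 9.92 kb from Vdr, was higher, at 592 ± 37.5 against 290 ± 27.0 normalized counts (edgeR adjusted p = 4.22e-15). Unc119, 2.67 kb from Foxn1, was at 47.0 ± 6.13 and 40.2 ± 12.7 and was not called. The neighbours of Msx1, Msx2, Foxq1 and Prdm1 were not called either. The other 3 lower ones, Dlx1as near Dlx2, Gm13262 near Gata3 and Ap5b1 near Ovol1, had adjusted p values of 0.049996, 0.0419 and 0.0487, all close to the threshold, and Gm31166 near Ovol1 was higher (edgeR adjusted p = 0.00371).

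For each member the gene with the most similar profile over the 6 libraries was sought among 10845 or 10846 candidates that averaged at least 100 normalized counts. Likeness was the root mean square distance between log2 values centred on their mean, and since the 6 points fall into the same 2 groups, it depends mostly on the size of the change. Msx2 was nearest to Dsg4, a desmosomal cadherin gene of the shaft (distance 0.123), and Dlx3 to Krt75, a companion layer keratin gene (0.0981). Msx1 was nearest to Tyr, the tyrosinase gene of melanocytes (0.252), which was the largest distance of the 10. Foxn1 (0.126) and Dlx2 (0.0530) were both nearest to Chac1. Prdm1 had the closest match (Fnbp1l, 0.0259), followed by Gata3 (Lig1, 0.0291), Vdr (Smad6, 0.0405), Foxq1 (Tubb6, 0.0494) and Ovol1 (Otub2, 0.0498).

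Markers of other cells changed as well, but in both directions. All 10 proliferation genes were lower, with sums of 9998.5 to 10916 against 2796 to 2834 normalized counts, and Mki67 had a log2 fold change of -2.12. All 6 melanocyte genes were lower, with sums of 3243 to 3588 against 1098.5 to 1119 (Dct -1.50). Of the 4 dermal papilla genes 2 were lower, Corin among them (-1.05), 1 was higher and 1 not called, with sums of 1777 to 1976 against 1587 to 1657. In the other direction, all 7 fibroblast genes were higher, with sums of 99673 to 120843 against 349195 to 368987 (Col1a1 1.56).

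The 7 sebaceous genes were all higher, with sums of 7298.5 to 8362 against 23717 to 24593. Of 8 suprabasal genes 6 were higher, 1 lower and 1 not called, with sums of 15961 to 18283 against 50734 to 51562 (Krt10 2.37), and of 6 basal keratinocyte genes 5 were higher and 1 lower, with sums of 18943 to 21373 against 31951 to 32938 (Krt14 0.85). The 7 myeloid genes were all higher, with sums of 1966 to 2158 against 9100.2 to 9502. Of 10 T lymphoid genes 5 were higher and 5 not called, with sums of 796.1 to 848 against 1796 to 1913, and among them Ptprc was higher (1.52) while Cd3e was not called (0.42). None of the named defining markers was at 0 in either group. Per kb of exon, Col1a1 was at 7018 in the WT-labelled and 20700 in the cKO-labelled libraries. Krt14 was at 3403 and 6122 and Cd34 at 42.7 and 149, so RNA of other cells was abundant in both groups. The part that the shifts of the markers have in the lower levels of the members was not tested.

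**Figure D5:**
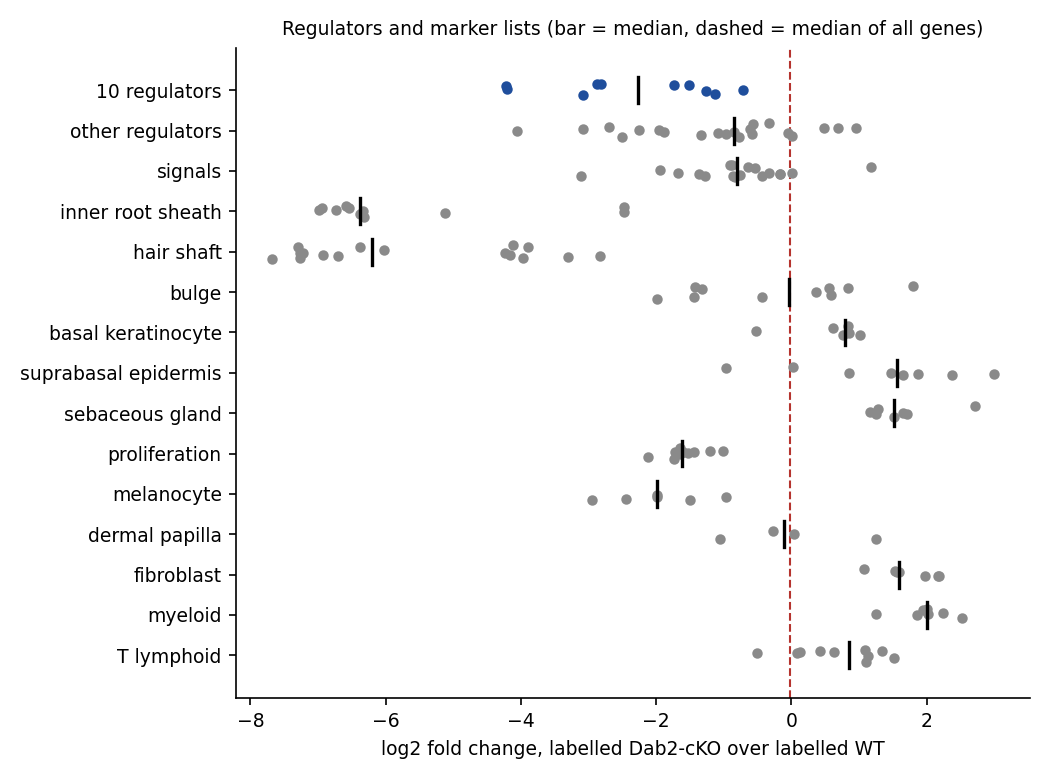
Log2 fold change (cKO-labelled over WT-labelled) of every tested gene of each list, with a bar at the median of the list and a dashed line at the median of all genes tested (-0.02). The median of the 10 regulators, in blue, is -2.28, between those of the sheath (-6.37) and shaft (-6.21) genes and that of the other regulators (-0.85), while single genes of these lists overlap. All values include background reads.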

How the data were processed

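The authors trimmed reads with fastp 0.23.4, aligned them to GRCm39 with HISAT2 2.2.1 and counted them with featureCounts 2.0.6. The deposited table of raw counts per gene was the only file used, and the table of the authors' own DESeq2 comparison (fold changes and p-values) was left out. Molecular identifiers, the annotation release, multi-mapping rules and the strand setting are not given in the sources used here. Library totals ran from 7040032 to 11696457 counts.

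With R 4.3.3, counts were filtered, normalized (TMM) and tested by the quasi-likelihood F test of edgeR 4.0.16 (robust dispersions) with all 6 libraries and no covariate. P-values were adjusted over all 32149 genes tested (Benjamini-Hochberg, threshold 0.05). The SE is the log2 fold change divided by the square root of F. Replicates differed beyond sampling noise. Gene IDs (56323 of 56941 matched), exon lengths and overlaps came from the GENCODE annotation of GRCm39. The promoter of 1 member is not reported here.

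The members, lists and alternatives were chosen with earlier results of these data known. Named were all members, Dab2, tested relatives, other regulators and vitamin D genes, the 4 genes of each structural and signaling list with the highest level per kb, neighbours, defining markers and the most similar gene. Shh, Wnt10b and Nog, the comparison with chemosensory receptor genes and its subtraction, and the scaling to basal keratinocyte genes were added after seeing the data. Alternatives comprised DESeq2 1.42.0, scaling by the upper quartile or by library size only, omission of mitochondrial and rRNA genes, other filters (none, or a mean count of 50 or more), a replicate block and each library left out in turn.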

Additional observations from a re-analysis of the deposited data

How the results depend on the processing

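All 10 members and Dab2 kept their direction and their call under every alternative run for them. Over these, the log2 fold change ran from -4.90 to -4.09 for Msx2, from -4.89 to -4.17 for Dlx3, from -3.48 to -2.52 for Msx1 and from -1.39 to -0.68 for Gata3. The lowest of these came from scaling to 6 basal keratinocyte genes, added after seeing the data, which lowers all genes alike (median -0.70) and so could not have raised a member. Scaling by library size only moved the median log2 fold change of all genes from -0.02 to -0.45, and upper-quartile scaling moved it to -0.17. With library size only, 11168 of all genes were called lower and 2686 higher, against 3682 and 5387, and with upper-quartile scaling 5561 were lower. Library size only also gave 5 lower and 1 higher of the relatives, 5 lower and 0 higher of the vitamin D genes, and 0 higher of the signaling genes. With a mean count of at least 50, fewer genes were tested, 1 relative was lower and 0 signaling genes were higher. Leaving out each library in turn gave 1 to 2 vitamin D genes higher, 2 of them without WT-labelled replicate 2, and 0 to 1 signaling genes higher. In the cKO-labelled libraries, Dlx2, Msx1 and Msx2 rest on 14 to 51 raw counts each.

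With the replicate number as a block, 10 members were lower, and 3620 of all genes were called lower and 5347 higher. The deviations of libraries with the same number correlated by 0.0213, 0.0129 and 0.00552, so the numbers were not taken to pair the samples, although every library correlated best with its own number. The block changed no other call on a list.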
